A study of Mus musculus with 153 samples.

Results

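The imprinted gene network is a set of growth genes that are transcribed mainly from 1 parental chromosome and whose levels often move together. Its members here were given as a list of gene names: H19, Igf2, Cdkn1c, Phlda2, Dlk1, Peg3, Mest, Grb10, Plagl1 and Ndn. Each was represented by the probe set annotated with that symbol alone, and by the one with the highest mean where there were several. This gave values for 9 of the 10 members, each from a single probe set, among 18810 genes on the array. H19 had no probe set annotated to it alone and was not analysed here. The tissue was tail skin of untreated mice at 8 weeks of age, 81 male and 70 female, with 1 array per mouse and values on the log2 scale. HET mice (37, of which 19 were male and 18 female) carried 1 working and 1 null copy of Hras, and WT mice (62 male and 52 female) carried 2 working copies. All were backcross offspring of F1 daughters of Mus spretus males and FVB/N Hras-/- females, mated to FVB/N males that were Hras-/- or Hras-/+. The arrays came from 3 plates with 49, 46 and 56 of these mice, and 2 further WT male arrays of plate 2 that the labels mark as outliers were set aside.

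In an imprinted gene a DNA methylation mark set in the egg or sperm determines which parent's copy is mainly transcribed. Igf2, Dlk1, Peg3, Mest, Plagl1 and Ndn are transcribed mainly from the father's chromosome, while H19, Cdkn1c, Phlda2 and, in most mouse tissues, Grb10 are transcribed mainly from the mother's. Every father in this cross was FVB/N, so the father's copy was of 1 strain throughout, while the mother's copy was either FVB/N or spretus from mouse to mouse. The array does not tell the alleles apart. Many members are high in the fetus and fall after birth, and in the mouse Plagl1, a zinc finger transcription factor, is known to act on several of the others.

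The F1 mothers carried their working Hras copy on the spretus chromosome only, so every WT mouse received spretus DNA at Hras from its mother, while HET mice could have received either strain there. Hras lies on mouse chromosome 7, as do H19, Igf2, Cdkn1c, Phlda2, Peg3 and Ndn. Counted over genes with a probe set, Igf2 was the 48th gene after Hras, Cdkn1c the 60th and Phlda2 the 62nd, whereas Ndn lay 828 and Peg3 1476 genes before it. A difference between genotypes in the genes near Hras cannot be told apart from a difference between maternal strains. The Hras transcript was not analysed here, so the genotype labels were not checked against it.

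Promoter windows from RefSeq (build GRCm38.p6), from 250 bases before to 50 bases after a transcript start, were given for 8 of the 10 members, 14 windows in all. The first of 2 Grb10 windows and the Ndn window are shown because these members had the highest mutual correlation. That of Phlda2 is shown because it stood apart from the other members, and that of Peg3 for a motif. Capitals mark CG dinucleotides, the sites of DNA methylation, in the first 3, and the letters GGGGCCCC in Peg3.
Grb10, chr11:12037371-12037670, minus strand: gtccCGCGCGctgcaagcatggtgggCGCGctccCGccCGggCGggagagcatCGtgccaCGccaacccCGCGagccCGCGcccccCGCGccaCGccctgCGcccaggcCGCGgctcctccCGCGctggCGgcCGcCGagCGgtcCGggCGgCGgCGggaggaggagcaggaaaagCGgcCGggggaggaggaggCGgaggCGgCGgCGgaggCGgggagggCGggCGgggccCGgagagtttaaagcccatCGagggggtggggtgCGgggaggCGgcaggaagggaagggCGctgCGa
Ndn, chr7:62348027-62348326, plus strand: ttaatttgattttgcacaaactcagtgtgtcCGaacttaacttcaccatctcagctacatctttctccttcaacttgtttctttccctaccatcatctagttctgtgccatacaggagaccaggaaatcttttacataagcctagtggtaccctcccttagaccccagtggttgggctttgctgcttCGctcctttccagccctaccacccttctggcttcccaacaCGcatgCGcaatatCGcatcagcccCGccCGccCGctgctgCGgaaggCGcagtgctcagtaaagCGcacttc
Phlda2, chr7:143502475-143502774, minus strand: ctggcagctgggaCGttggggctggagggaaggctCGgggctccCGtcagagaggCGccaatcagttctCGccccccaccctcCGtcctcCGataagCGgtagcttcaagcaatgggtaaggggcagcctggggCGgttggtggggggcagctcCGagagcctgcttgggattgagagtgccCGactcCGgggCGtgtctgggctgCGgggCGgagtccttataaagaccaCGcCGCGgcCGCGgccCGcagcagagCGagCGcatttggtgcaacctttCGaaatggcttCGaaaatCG
Peg3, chr7:6730370-6730669, minus strand: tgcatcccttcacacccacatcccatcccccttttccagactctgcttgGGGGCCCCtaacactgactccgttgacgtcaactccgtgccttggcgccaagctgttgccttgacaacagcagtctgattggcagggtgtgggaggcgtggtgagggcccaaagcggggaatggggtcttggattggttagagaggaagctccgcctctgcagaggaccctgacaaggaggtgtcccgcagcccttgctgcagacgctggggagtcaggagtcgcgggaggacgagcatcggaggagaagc
The Grb10 window shown held 45 CG dinucleotides, and 1.93% of the 32851 windows of all genes held as many. The other Grb10 window held 9. The Phlda2 window held 26 (16.9% of windows held as many) and the Ndn window 11 (41.4%), against a median of 7. GGGGCCCC, searched on both strands, was found once in the member windows, 201 bases before the Peg3 start, and in 1.08% of all windows. TATAAA, searched on both strands, was found only in the Phlda2 window among these 14, 30 bases before the start, and in 13.6% of all windows. These matches describe letters in the windows and were not tested as binding sites.

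Each member varied over more than 1 doubling between mice. Mest, which encodes a hydrolase-like protein linked to fat tissue growth in mice, ran from 4.06 to 7.40 with a median of 5.27, and its SD of 0.59 stood at the 98.1 percentile of all genes. Igf2, the growth factor ligand of the group, ran from 4.24 to 6.76 with a median of 5.35 (SD 0.51, 96.9 percentile). Cdkn1c, which encodes the cell cycle inhibitor p57, was the narrowest, from 4.22 to 5.81 with a median of 4.92 (SD 0.27, 72.1 percentile). The 3 measured members expressed mainly from the mother's chromosome (Cdkn1c, Phlda2 and Grb10) had SDs of 0.27 to 0.42. Those expressed mainly from the father's chromosome had SDs of 0.32 (Plagl1) to 0.59 (Mest), so the ranges overlapped. Phlda2, a small pleckstrin homology protein that limits placental growth in mice, had an SD of 0.42, and Grb10, an adaptor that dampens insulin and IGF receptor signalling, an SD of 0.39. The bimodality coefficient was computed on residuals after genotype, sex and plate. This measure is 0.556 for an even distribution, and 2 separate peaks or a skewed shape can raise it. It lay between 0.238 for Cdkn1c and 0.427 for Dlk1, so no member exceeded the value of an even distribution. A low value does not show that the mice form no clusters. Over all genes, 0.601% exceeded 0.556. At the top of the range, the 5 highest Mest levels, 6.93 to 7.40, were all in WT females and came from all 3 plates.

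**Figure D1:**
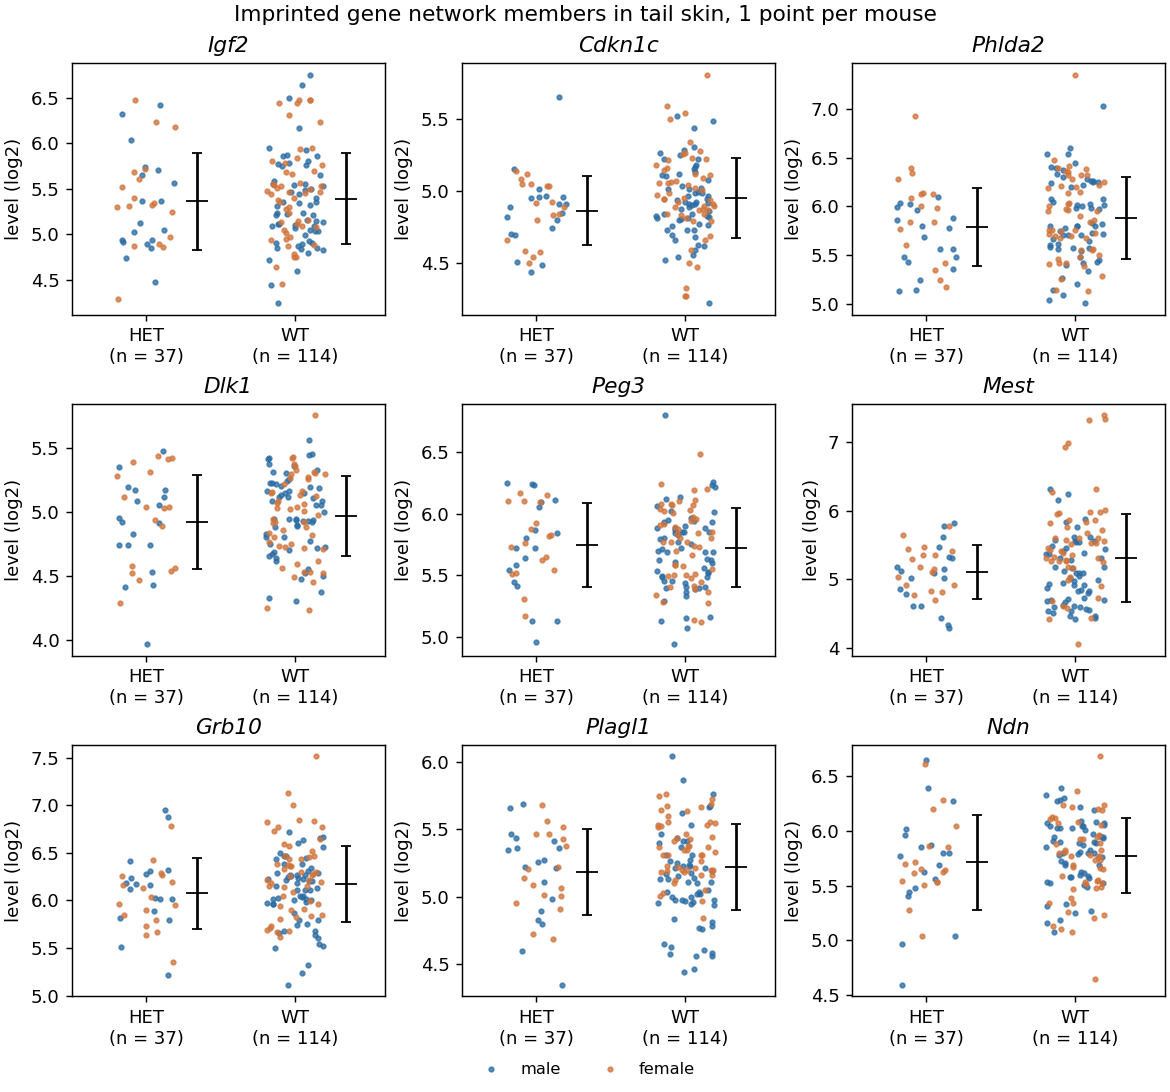
Level (log2) of the 9 members in every mouse, HET left and WT right, with males in blue and females in orange; bars give the mean and SD. HET and WT mice overlap over most of the range for each gene, and the 5 highest Mest values, above 6.9, are WT females.

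The first comparison asked whether the members differ between HET and WT skin. None of the 9 changed with genotype in limma, with sex and plate in the model and p-values adjusted over all 18810 genes, of which 0.112% were called (21 genes). At an unadjusted p under 0.05 the count was also 0 of 9. The estimates ran from -0.20 for Mest to 0.03 for Peg3 (HET minus WT), with 1 of 9 above 0 and a median of -0.05, beside a median of all genes of -5.9e-05. In bulk skin, fewer cells of a type and less RNA per cell cannot be told apart, here or in the comparisons that follow.

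Mest had the lowest p of the members. Its level ran from 4.30 to 5.83 with a median of 5.13 in HET mice, and from 4.06 to 7.40 with a median of 5.30 in WT mice. The HET mice all lay inside the WT range. The difference was -0.20 ± 0.11 (SE; 95% interval -0.41 to 0.00; adjusted p = 0.773 by limma). Grb10 averaged 6.07 ± 0.37 in HET mice and 6.17 ± 0.40 in WT mice (SD), a difference of -0.09 ± 0.07. Ndn, which encodes the MAGE family protein necdin, averaged 5.71 ± 0.43 in HET mice and 5.77 ± 0.34 in WT mice, a difference of -0.05 ± 0.07. Neither difference exceeded its error by enough to be called.

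Among the members near Hras, Igf2 was the closest to no difference. It ran from 4.29 to 6.48 with a median of 5.32 in HET mice, and from 4.24 to 6.76 with a median of 5.35 in WT mice, a difference of -0.01 ± 0.10 (95% interval -0.19 to 0.18; adjusted p = 0.994 by limma). Cdkn1c averaged 4.86 ± 0.24 in HET mice and 4.95 ± 0.28 in WT mice, a difference of -0.07 ± 0.05 with a 95% interval of -0.17 to 0.02. Phlda2 averaged 5.79 ± 0.40 in HET mice and 5.88 ± 0.42 in WT mice, a difference of -0.08 ± 0.08 with an interval of -0.24 to 0.07. All 3 intervals include 0. Among genes of hair shaft and inner root sheath, whose genes Phlda2 followed most closely between mice, 0 of 13 genes were called. All 13 estimates lay below 0, and the list's mean level ran from 7.79 to 10.2 in HET mice and from 7.48 to 10.5 in WT mice. The list's part in the Phlda2 estimate was not tested.

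The spread between mice was compared between genotypes because HET mice could carry either maternal strain at Hras. Of the measured members near Hras, only Cdkn1c and Phlda2 are read mainly from the mother's copy. The count over all 9 members therefore says little about the maternal strain there. By limma on absolute residuals, 0 of 9 members differed in spread after adjustment, and 0 of 9 at an unadjusted p under 0.05. Over all genes 0% were called (997 genes had an unadjusted p under 0.05). Mest had an SD of 0.39 in HET mice and 0.64 in WT mice (difference of mean absolute residuals -0.10 ± 0.07, adjusted p = 0.943 by limma). Igf2 had an SD of 0.54 in HET mice and 0.50 in WT mice, and Phlda2 0.40 in HET mice and 0.42 in WT mice. Cdkn1c had an SD of 0.24 in HET mice and 0.28 in WT mice (difference of mean absolute residuals -0.05 ± 0.03, adjusted p = 0.951 by limma).

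Between the sexes, 2 of the 9 members differed, both lower in males: Mest and Plagl1. The same model called 3.62% of all genes for sex, 2.51% as lower and 1.1% as higher in males. The median difference of the 9 members was -0.10 (male minus female), beside -0.006 over all genes, and 1 of 9 estimates was above 0. Mest, with the widest range of the members, was 1.32-fold lower in males. Plagl1, the transcription factor of the group, was 1.16-fold lower in males.

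Mest ran from 4.30 to 6.32 with a median of 5.05 in males, and from 4.06 to 7.40 with a median of 5.40 in females. The ranges overlapped, and every level above 6.32 was in a female. The difference was -0.40 ± 0.09 (SE; 95% interval -0.58 to -0.22; adjusted p = 0.00234 by limma). It was not seen on plate 1 alone, where males averaged 5.30 ± 0.51 and females 5.34 ± 0.63 (difference -0.04 ± 0.16). On plate 2 males averaged 4.98 ± 0.37 and females 5.57 ± 0.61 (difference -0.58 ± 0.14, adjusted p = 0.0424 by limma), and on plate 3 males averaged 4.95 ± 0.42 and females 5.48 ± 0.71 (difference -0.55 ± 0.14, adjusted p = 0.0513). Sex accounted for 11.2% of the variance of Mest, and genotype for 2.11%.

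Plagl1 ran from 4.35 to 6.04 with a median of 5.13 in males, and from 4.69 to 5.76 with a median of 5.32 in females. Males held both the highest and the lowest levels, and their SD was 0.34, against 0.25 in females. The difference was -0.21 ± 0.05 (95% interval -0.31 to -0.12; adjusted p = 0.00235 by limma). By plate it was -0.09 ± 0.09, -0.26 ± 0.08 and -0.28 ± 0.08, with none called alone. Grb10 averaged 6.09 ± 0.37 in males and 6.22 ± 0.41 in females, and its difference of -0.14 ± 0.06 did not pass adjustment (adjusted p = 0.216 by limma). Igf2 had a difference of -0.13 ± 0.08, and the other 5 members had differences between -0.10 and 0.04.

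**Figure D2:**
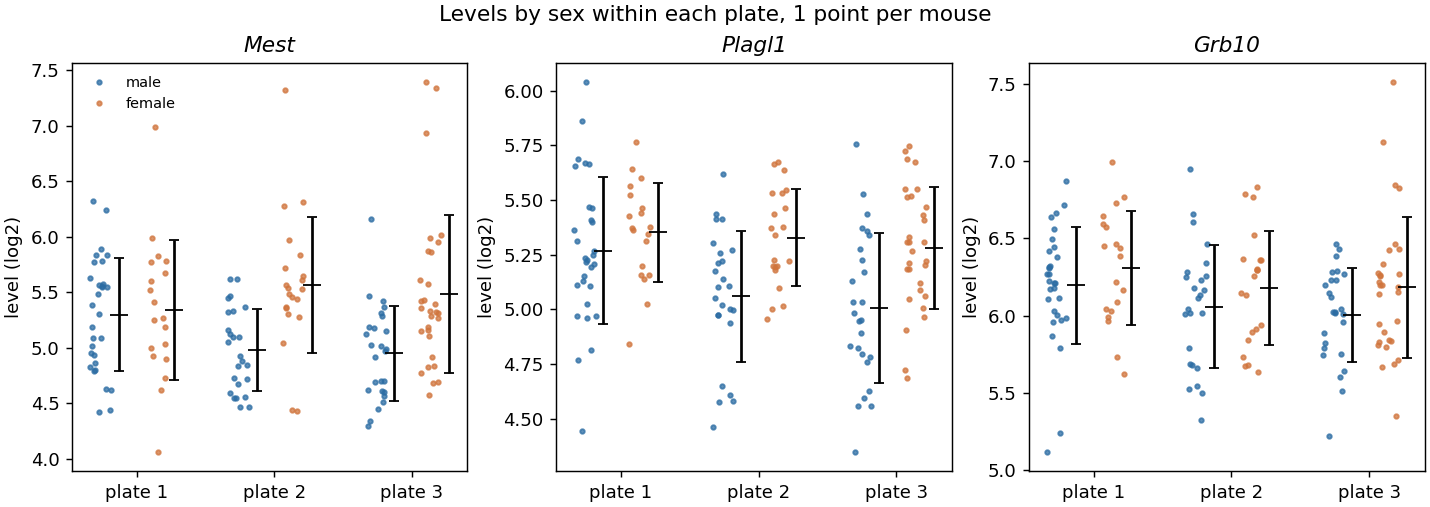
Level (log2) of Mest, Plagl1 and Grb10 in every mouse, males left and females right within each plate; bars give the mean and SD. The mean of each gene is lower in males on each plate, and the Mest means of plate 1 differ by 0.04. Males and females overlap for each gene on each plate.

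Some marker genes of other skin cell types also differed between the sexes, where 2.51% of all genes were called as lower and 1.1% as higher in males. Of 15 measured fibroblast and matrix genes, 3 were higher in males (Col3a1, Col1a1 and Col1a2) and 4 lower (Pi16, Postn, Fn1 and Lum). The mean level of that list ran from 7.81 to 9.35 in males and from 8.00 to 9.82 in females. Of 11 adipocyte genes, 3 were lower in males: the adipokine gene Adipoq (-0.30 ± 0.07), the lipid carrier gene Fabp4 (-0.26 ± 0.08) and the lipase gene Pnpla2 (-0.11 ± 0.03). The adipocyte list ran from 5.52 to 6.60 in males and from 5.52 to 6.83 in females. The other lists with called genes were hair follicle stem cell and dermal papilla (3 of 10 lower in males), hair shaft and inner root sheath (2 of 13 lower) and epidermis (2 of 9 higher). No gene was called in the skeletal muscle, muscle progenitor, endothelial, nerve, cartilage or macrophage lists. With scores of the muscle, adipocyte and fibroblast lists in the model, Mest remained lower in males by a smaller amount (-0.24 ± 0.06, adjusted p = 0.0054 by limma), and Plagl1 had a difference of -0.20 ± 0.05 (adjusted p = 0.00356). With the scores of all 11 marker lists the differences were -0.24 ± 0.06 for Mest and -0.18 ± 0.05 for Plagl1, and both were called. In that model Ndn was called as higher in males (0.15 ± 0.04, adjusted p = 0.00993), against 0.04 ± 0.06 without the scores.

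The sex difference of the members was not shown to depend on genotype. No member passed adjustment for the genotype by sex term, nor did any of the 18810 genes (0% called, 895 at an unadjusted p under 0.05). The unadjusted p was under 0.05 for 1 of 9 members, Grb10, whose male minus female difference was 0.29 ± 0.14 larger in HET mice than in WT mice (p = 0.0413, adjusted p = 0.998 by limma). Among HET mice, Mest averaged 5.05 ± 0.46 in males and 5.18 ± 0.31 in females. Among WT mice it averaged 5.10 ± 0.47 in males and 5.57 ± 0.72 in females. The difference was -0.17 ± 0.11 in HET mice alone and -0.47 ± 0.11 in WT mice alone, and the term for Mest was 0.34 ± 0.21 (adjusted p = 0.998). Plagl1 averaged 5.17 ± 0.35 in males and 5.19 ± 0.29 in females among HET mice, and 5.10 ± 0.34 in males and 5.36 ± 0.22 in females among WT mice. Its difference was -0.08 ± 0.09 in HET mice alone and -0.26 ± 0.05 in WT mice alone, and its term was 0.22 ± 0.11 (p = 0.0516, adjusted p = 0.998 by limma).

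Most pairs of members were correlated between mice. After genotype, sex and plate were removed, 23 of the 36 member pairs were correlated, 21 of them above 0 and 2 below. As background, 16.7% of the 169281 pairs of a member with any other gene were called by the same limma test, 9.09% above 0 and 7.64% below. The median r of the 36 pairs was 0.26, against -0.02 for members with all genes, whose 5th and 95th percentiles were -0.25 and 0.30. All 23 called pairs kept their sign within each of the 3 plates, taken on the residuals of the fit to all mice; refitted on plate 3 alone, Cdkn1c with Plagl1 had r = -0.029. Of the 36, 12 reached the smallest p that 100000 permutations can give, 1e-05.

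Igf2 was called with all 8 other members (22.8% of all genes were called with Igf2), Ndn with 7 (26.4%), and Grb10 and Cdkn1c with 6 each (24.9% and 15.5%). Mest was called with 5 (14%). Grb10 and Ndn formed the closest pair (Pearson r = 0.72, Spearman rho = 0.66, permutation p = 1e-05 for both, adjusted p = 1.4e-22 by limma). Their r was 0.74, 0.86 and 0.61 within plates 1, 2 and 3, and 0.70 when the 2 mice most distant from the Grb10 median were left out. Igf2 and Grb10, a ligand and an inhibitor of its receptor's signalling, had r = 0.57 (rho = 0.58, permutation p = 1e-05, adjusted p = 3.3e-12 by limma). Mest had r = 0.52 with Grb10 and 0.50 with Ndn, and Igf2 had r = 0.51 with Ndn and 0.49 with Cdkn1c, which lies in the same region of chromosome 7. Each of these 4 reached the smallest permutation p. Igf2 and Cdkn1c are read mainly from opposite parental chromosomes, as are Grb10 and Ndn, Igf2 and Grb10, and Mest and Grb10.

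Dlk1, a transmembrane protein that holds back fat cell differentiation, and Peg3, a zinc finger protein, were less tied to the rest. Dlk1 was called with 2 members (6.82% of all other genes were called with it), Igf2 (r = 0.42, rho = 0.41, adjusted p = 4.2e-06 by limma) and Ndn (r = 0.24, adjusted p = 0.027). The call with Ndn was lost under quantile normalization (adjusted p = 0.0555 by limma) and without 2 mice (r = 0.17, adjusted p = 0.191). Among all 18809 other genes, Igf2 ranked 2nd by r for Dlk1. The mean level of Dlk1 was 4.96, below the median gene mean of 5.45. So were those of Cdkn1c (4.93), Plagl1 (5.21), Mest (5.26) and Igf2 (5.38). Whether a weak signal lowered the correlations of Dlk1 was not tested. Peg3 was called with 4 members (background 13.9%), of which Grb10 had the highest r (0.41, rho = 0.43, adjusted p = 7.3e-06 by limma). Plagl1 was called with 6 members (background 9.63%), from r = 0.42 with Grb10 to 0.23 with Mest. The call with Mest was lost under quantile normalization (adjusted p = 0.0966 by limma) and without 2 mice (adjusted p = 0.146). With Igf2 and Cdkn1c its r was 0.26 and 0.28, but within plate 3 it was 0.09 and 0.01.

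Phlda2 stood apart. It was called with 2 members, both below 0 (16.7% of all genes were called with it). These were Igf2 (r = -0.29, rho = -0.24, permutation p = 0.00026, adjusted p = 0.0034 by limma) and Cdkn1c (r = -0.24, rho = -0.23, permutation p = 0.0025, adjusted p = 0.023). All 3 genes lie in 1 stretch of chromosome 7. The call with Cdkn1c was lost without the plate term (r = -0.20, adjusted p = 0.0645 by limma) and without 2 mice (r = -0.17, adjusted p = 0.152), and r was -0.03 in males and -0.45 in females. Its pairs with Dlk1, Mest, Grb10 and Ndn were also below 0 but not called. Its highest r with a member was 0.19, with Peg3. The 28 pairs without Phlda2 were all above 0, from 0.14 to 0.72, with a median of 0.30.

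**Figure D3:**
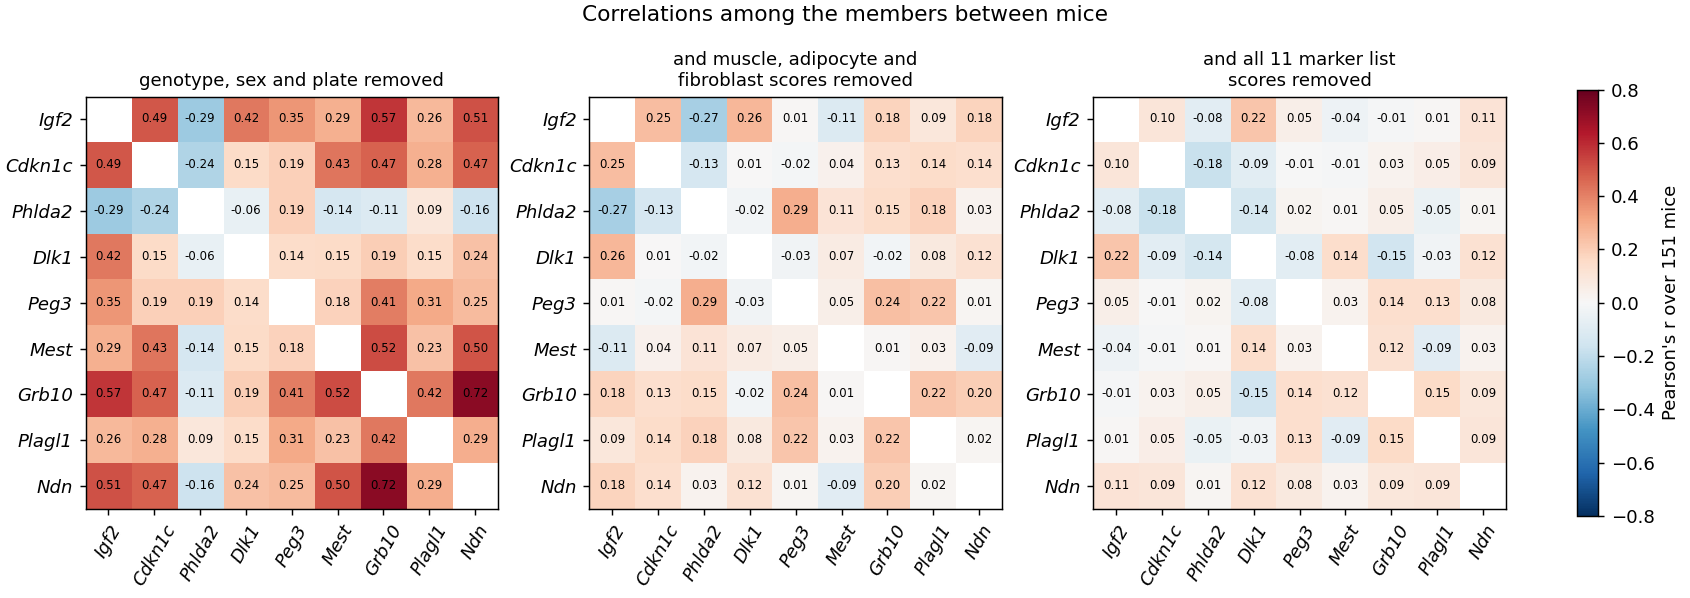
Pearson's r between members over all mice kept, by colour and number, after removal of genotype, sex and plate (left), then also of muscle, adipocyte and fibroblast scores (middle) or of all 11 marker list scores (right). Grb10 and Ndn reach 0.72 at the left and 0.09 at the right, and Phlda2 is in every pair below 0 at the left.

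Most of these calls were lost once marker lists of cell types were taken into account. With covariates for the muscle, adipocyte and fibroblast lists, 3 of the 36 pairs were called: Igf2 with Dlk1 (r = 0.26, adjusted p = 0.036 by limma), Phlda2 with Peg3 (r = 0.29, adjusted p = 0.0156) and Igf2 with Phlda2 (r = -0.27, adjusted p = 0.0343). Of these, Phlda2 with Peg3 was a gained call, with r = 0.19 and an adjusted p of 0.099 without the scores. Grb10 and Ndn had r = 0.20 there, with an adjusted p of 0.187. With the scores of all 11 lists, a setting added after the data were seen, 0 of 36 were called by limma and 2 had an unadjusted p under 0.05. The median r was then 0.03, and Grb10 and Ndn had r = 0.09. Removing list scores also removes any part of a member's own variation that runs along with those cell types.

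The members differed in the marker lists they followed. The r values in the rest of this paragraph and the next compare genes read from the same array of each mouse, and carry no test. Grb10, Ndn and Mest followed the fibroblast and matrix list, with a mean r over its 15 genes of 0.71, 0.61 and 0.49. Igf2 and Cdkn1c came next with that list, at 0.44 and 0.38. With the endothelial and pericyte list the highest values were those of Grb10 (0.51), Igf2 (0.45) and Ndn (0.42). Grb10 and Ndn also followed the macrophage list (0.52 and 0.54) and ran against the epidermis list (-0.34 and -0.36). Igf2 followed the skeletal muscle list most closely, with a mean r of 0.61 over 16 genes and a range of 0.34 to 0.68, and Peg3 did so at 0.42. Mest had a mean r of 0.42 with the adipocyte list, more than any other member. Phlda2 had a mean r of 0.71 with the 13 hair shaft and inner root sheath genes, where no other member exceeded 0.24. In the labelled tissue the epidermis list was present in every mouse, at a mean level of 10.8 to 11.3, while the muscle list ran from 3.59 to 7.75.

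**Figure D4:**
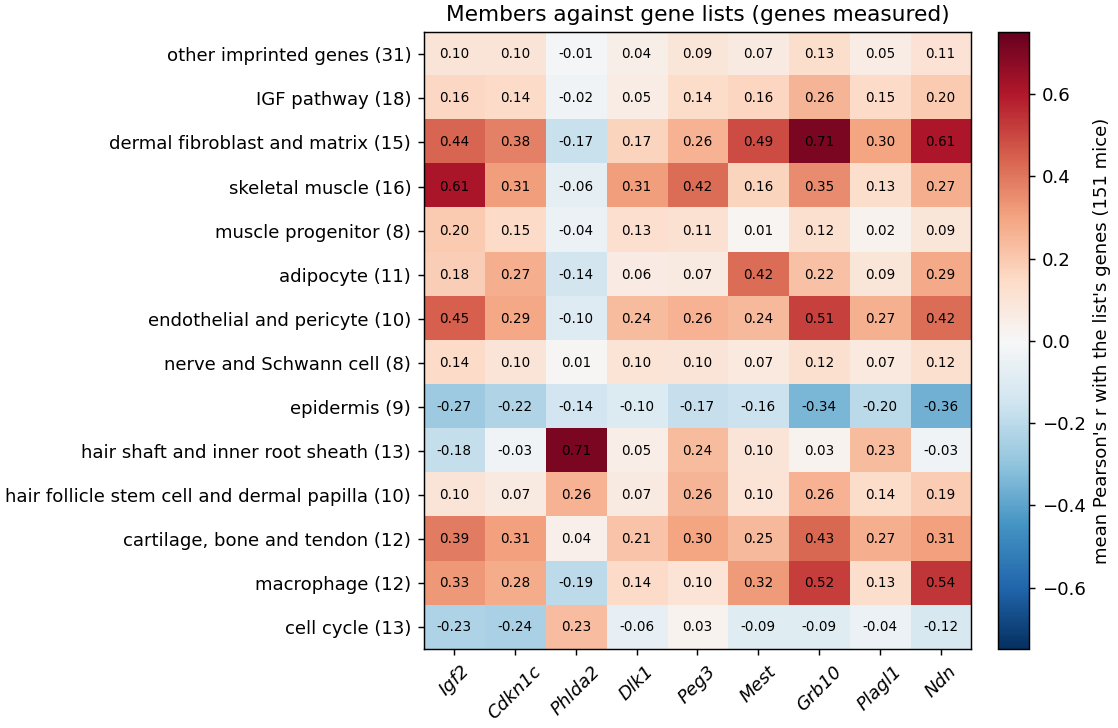
Mean Pearson's r of each member with the measured genes of each list over all mice kept, by colour and number, with the number of genes beside the list name. Grb10 stands at 0.71 with fibroblast and matrix genes, Igf2 at 0.61 with skeletal muscle genes and Phlda2 at 0.71 with hair shaft and inner root sheath genes.

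The nearest and lowest genes in this paragraph were taken only from genes with a mean at or above the median gene mean (5.45). Among these, the genes with the highest r for Igf2 were Mef2c (r = 0.73), Mustn1 (0.71) and the myoglobin gene Mb (0.68). Mef2c is a transcription factor of muscle and other tissues. For Dlk1 the nearest were Mef2c (0.42), the troponin gene Tnni2 (0.40) and Cfap298 (0.37). Igf2, whose own mean of 5.38 lay below that level, had r = 0.42 with Dlk1. Peg3 was closest to Meg3, an imprinted long noncoding RNA of the Dlk1 region (0.57), the perlecan gene Hspg2 (0.57) and the troponin gene Tnni1 (0.52). Troponins are parts of the contractile fibre. For Grb10 the nearest were Fstl1 (0.86), the mesenchymal transcription factor Prrx1 (0.85) and the collagen gene Col6a1 (0.85). For Ndn they were Sgce (0.81), Cd34 (0.80) and Fkbp7 (0.79). For Mest they were the transferrin gene Trf (0.67) and the collagen genes Col3a1 and Col6a2 (0.64 each). Col3a1 followed Mest across mice although the sexes differed in opposite directions: Col3a1 was higher in males by 0.26 ± 0.05 (adjusted p = 0.000373 by limma), while Mest was lower. Cdkn1c was closest to Cygb (0.63), Plpp3 (0.61) and the matrix gene Sparc (0.60). Plagl1 was closest to the parathyroid hormone receptor gene Pth1r (0.50), Itgbl1 (0.46) and Fap (0.46), with lower values than for the other members except Dlk1. Phlda2 was closest to Ly6g6g, the hair keratin gene Krt32 and Msi1 (0.80 each). The lowest r of each member ran from -0.67, for Phlda2 with the matrix gene Tgfbi, to -0.40, for Dlk1 with Cxadr.

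**Figure D5:**
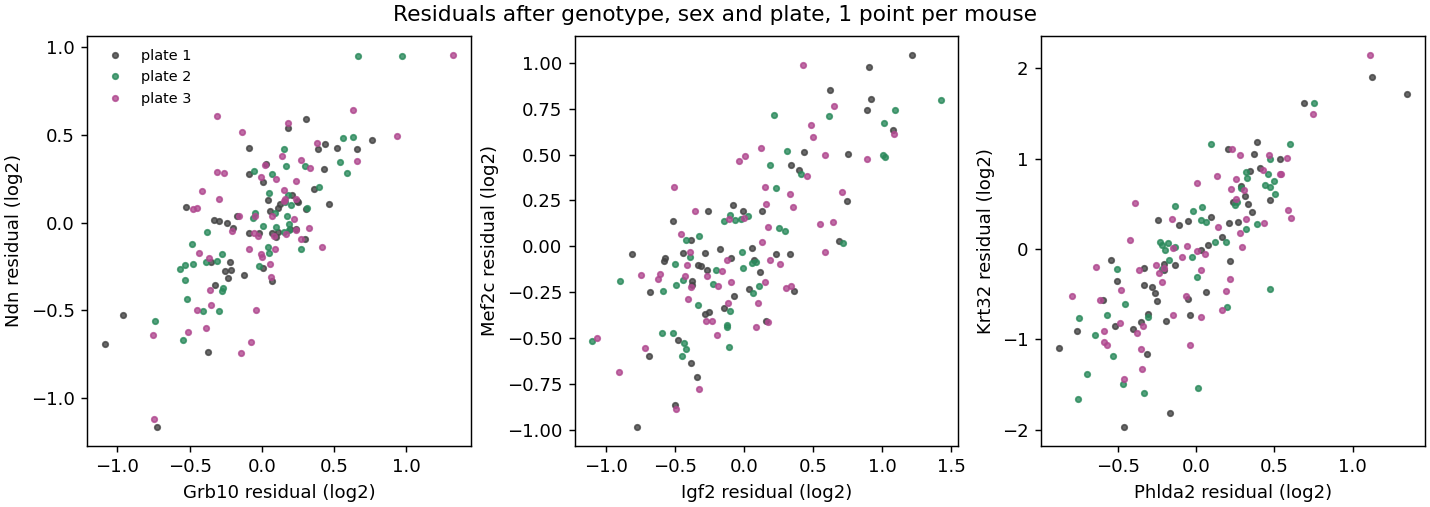
Residual level (log2) after genotype, sex and plate of Ndn against Grb10, Mef2c against Igf2 and Krt32 against Phlda2, 1 point per mouse, coloured by plate. The points of all 3 plates lie along 1 band in each panel, with r of 0.72, 0.73 and 0.80.

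Other imprinted genes were read from a list of 38, of which 31 were measured. Whether they are imprinted in tail skin was not tested, because the array does not tell the alleles apart. None changed with genotype (0 of 31 by limma, 4 at an unadjusted p under 0.05). The lowest p was that of Slc22a18, a transporter gene that lies between Cdkn1c and Phlda2 in the order of measured genes, whose difference was 0.16 ± 0.05 (HET minus WT, adjusted p = 0.193). The ubiquitin ligase gene Ube3a followed (-0.07 ± 0.03, adjusted p = 0.584). For sex, where 3.62% of all genes were called, 1 of 31 was called, the tetraspanin gene Cd81, lower in males (-0.10 ± 0.03, adjusted p = 0.0302 by limma). Of 279 pairs of a member with one of these genes, 68 were called above 0 and 20 below, where 9.09% of pairs of a member with any gene were called above 0 and 7.64% below. The count below 0 was near that background. The calls above 0 do not describe the list as a whole. A member's median r over the 31 genes lay between -0.04 (Phlda2) and 0.10 (Peg3), and was 0.05 for Grb10. Sgce, a sarcoglycan gene, had r = 0.81 with both Ndn and Grb10, and its neighbour Peg10 had r = 0.77 with Grb10. Gnas, the stimulatory G protein gene, had r = 0.76 with Grb10, and the matrix proteoglycan gene Dcn had r = 0.75 with Ndn. Dio3 had r = 0.58 with Phlda2 (0.71, 0.60 and 0.44 within plates 1, 2 and 3).

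Igf2 acts through IGF receptors and is bound by IGF binding proteins, so the 18 measured genes of a 19 gene IGF pathway list were set beside the members. With genotype 0 of 18 were called by limma, and 2 had an unadjusted p under 0.05. The protease gene Htra1 had the lowest p (-0.16 ± 0.05, adjusted p = 0.303), followed by Igfbp7 (-0.12 ± 0.06, adjusted p = 0.74). With sex, 3 of 18 changed, all lower in males, where 3.62% of all genes were called and 2.51% were called as lower in males. They were the binding protein genes Igfbp4 (-0.28 ± 0.06, adjusted p = 0.00055 by limma) and Igfbp7 (-0.21 ± 0.05, adjusted p = 0.0059) and the receptor gene Igf1r (-0.09 ± 0.03, adjusted p = 0.0342). The median difference of the list was -0.02, beside -0.006 over all genes.

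H19, Igf2 and Mest each hold a microRNA gene within their span in the RefSeq table, and these had probe sets of their own, named here after their values were seen. Mir675 lies in the first exon of H19, so a probe set for it may also read H19 RNA, and it is not given as a level of H19. It is shown with both mature arms because it differed between the sexes. Capitals mark the seed, bases 2 to 8.
mmu-miR-675-5p, chr7:142577112-142577133, minus strand: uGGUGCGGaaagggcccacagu
mmu-miR-675-3p, chr7:142577078-142577099, minus strand: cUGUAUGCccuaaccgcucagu
The arms have different seeds, GGUGCGG and UGUAUGC, and the array does not tell the arms apart. The Mir675 probe set ran from 4.79 to 7.20 with a median of 5.78 in males, and from 4.94 to 7.36 with a median of 6.13 in females, with wide overlap. The difference was -0.34 ± 0.09 (adjusted p = 0.0201 by limma), where 3.62% of all genes were called for sex. Males and females averaged 5.95 and 6.05 on plate 1, 5.85 and 6.24 on plate 2, and 5.52 and 6.02 on plate 3. HET and WT mice differed by -0.03 ± 0.11 (adjusted p = 0.983). Between mice it had r = 0.51 with Igf2, the neighbour of H19, 0.49 with Grb10 and 0.42 with Ndn. Mir483, within Igf2, had r = -0.24 with Igf2 and was called for neither genotype nor sex. Mir335, within Mest, had a mean of 2.99, below the lower quartile of every array, and r = -0.02 with Mest.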

How the data were processed

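Total RNA of tail skin was measured on 153 Affymetrix arrays, 1 per mouse. The deposited values are log2 levels that the authors made with RMA, per the submitters' processing notes, which name no version. As a method, RMA includes background correction, normalization across arrays and a summary of each probe set's probes, so differences that shift all genes of an array are largely removed. The table had 35556 rows, of which 171 had no values. Array medians lay between 4.67 and 4.89, no pair of arrays correlated above 0.986, and the number of mice limits the precision. Levels are not compared between genes, because probe sets differ in response. By the platform annotation 21201 probe sets had a single symbol, 1881 had more than 1 and 12303 had none. Identifiers of 21168 of the named probe sets matched a RefSeq table (GRCm38.p6) and 33 did not. Promoter and microRNA sequences are from RefSeq tables of the same build, and no gene coordinates are printed because the array's build is not given.

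Groups were taken from the labels' genotype and sex. Replicates are separate mice by their mouse numbers. The 2 arrays labelled outlier were left out and added back as an alternative. Genotype, sex and plate were fitted to 18810 genes with limma 3.58.1 under R 4.3.3 (functions lmFit and eBayes, with a mean-variance trend), and a genotype by sex term was fitted in a further model. Spread was tested by limma on absolute deviations of residuals from the median of their genotype. A correlation was called by limma with 1 member as a covariate, adjusted over all genes and 9 members together, taking the larger p of the 2 directions. A call is a Benjamini-Hochberg adjusted p under 0.05 over the whole table. Permutation tests (two-sided, 100000 draws) used residuals in Python 3.11.15. Each list was scored by averaging the standardised levels of its genes. The fits were tested on simulated data.

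The members and gene lists were chosen with earlier results of these data known, and list counts are not independent evidence. The genes named are the members, and for each member the 3 genes with the highest and 1 with the lowest r among genes at or above the median mean. From the other imprinted and IGF lists the rule takes up to 5 called genes for each comparison, or the 2 lowest p where none passed, and the 5 imprinted genes with the highest absolute r. Marker genes called for sex and the microRNA genes were named after their values were seen. Alternatives were array centring, quantile normalization, the outlier arrays, the mean over probe sets, no plate term, a filter at the median gene mean (5.45), list scores as covariates, no variance trend, single plates, single sexes and single genotypes, and for correlations Spearman's rho and leaving out 2 mice.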

Additional observations from a re-analysis of the deposited data

How the results depend on the processing

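The genotype, spread and interaction comparisons called 0 members under every alternative run, with all 9 tested except under the filter on the mean, which left 4 (Phlda2, Peg3, Grb10 and Ndn). The 2 members called for sex remained 2 under array centring, quantile normalization, the outlier arrays, the mean over probe sets, no plate term, the 3 list scores, no variance trend and WT mice alone. The count for sex was 0 on plate 1 alone, 0 on plate 3 alone, 0 in HET mice alone and 1 (Mest) on plate 2 alone, where fewer mice were fitted. It was also 0 among genes at or above the median mean, because Mest and Plagl1 lay below that mean and were not tested, and 3 with all 11 list scores, where Ndn was added. The 23 called pairs became between 20 and 24 under array centring, quantile normalization, the outlier arrays, the mean over probe sets, no plate term, Spearman's rho and leaving out 2 mice. They became 11, 13 and 2 on plates 1, 2 and 3 alone, 15 in males, 16 in females, 17 in WT mice and 4 in HET mice, and 3 of the 6 pairs left by the filter on the mean. With the 3 list scores 3 pairs were called, and with all 11 scores 0.

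Called pairs turned sign, without being called, in these cases. With the 3 list scores r was -0.11 for Igf2 with Mest and -0.089 for Mest with Ndn. On plate 3 alone it was -0.029 for Cdkn1c with Plagl1, and in HET mice alone -0.053 for Mest with Plagl1. With all 11 scores it was -0.038 for Igf2 with Mest, -0.010 for Igf2 with Grb10, -0.012 for Cdkn1c with Mest and -0.091 for Mest with Plagl1. The cause was not tested. Values called in neither setting differed in sign in 20 cases for genotype, 16 for sex, 4 for the interaction, 3 for spread and 27 for pairs. Over all genes, the 21 genotype calls became 0, 18 and 0 on plates 1, 2 and 3 alone, 0 in males and 10 in females. The share called for sex, 3.62% over all mice, was 0.276%, 0.383% and 0.611% on plates 1, 2 and 3 and 0.138% in HET mice. No paired analysis was possible because the labels number no replicates that the groups share. Signal over background per probe set was not analysed here.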
